A study of Mus musculus with 14 samples.

Results

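The contacts described here are those between 10 kb bins whose starts lie 20, 30, 40 or 50 kb apart, in 2 pooled contact matrices of a stretch of mouse chromosome 16. They were taken by distance alone, from all 535 bins between 45520001 and 50870000 (mm10), which gave 2126 of the 143380 bin pairs in each matrix. One matrix was of mouse embryonic stem cells (mESC) after 2 days of auxin and the other of untreated mESC, as the deposited names give them. Auxin, a hormone of plants, is added to engineered animal cells so that a protein carrying a degron tag is destroyed. The sample labels name no auxin treatment and no tagged protein, so the genotype and clone of these cells are not known here. The 14 labelled samples, in 10 groups (mESC, NPC and the deletion and inversion lines 100k.del, 145k.del, 18k.del, 680kinv, abc.del, ab.del, bc.del and c.del), are Capture Hi-C libraries of Cas and 129 hybrid mESC or of neural precursors made from them, cut with MboI and enriched for 45488946 to 50879849. None of them had a matrix here, and they were not compared. Replicates had been combined into 1 matrix per condition, so each difference below compares these libraries, has no replicate check and carries no p-value.

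Hi-C ligates cut DNA fragments that are near each other in the nucleus, and the ligated fragments are read as pairs, so the pairs linking a pair of bins measure how often they meet. Contact at the distances used here reflects how tightly the chromatin fibre is folded locally, below the scale of most topological domains, and falls off steeply with distance. Regions rich in transcribed genes and regions without genes often differ in local folding, and gene promoters often lie at or near the edges of domains. Dppa2 and Dppa4, after which the captured domain is named, encode SAP-domain proteins that bind DNA in pluripotent cells and the early embryo.

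The interval holds 28 protein-coding genes of the RefSeq annotation. A gene-free gap of 1559 kb (46498536 to 48057638) lies between Nectin3, a cell adhesion gene, and Gm52257, a predicted gene. Gene-free here and below means free of protein-coding gene bodies, and genes of other types were not counted. The promoters shown are those of the genes on either side of this gap and of Cip2a, which encodes an inhibitor of the phosphatase PP2A. They are shown because windows with low contact lay at Nectin3 and at Cip2a, and because Gm52257 bounds the gap. In the deposited matrices the gap had the highest mean contact of the stretches compared below. Its last window before Gm52257 was at 0.804 times the average in auxin and 0.913 in untreated. Without bins of few read pairs that window lay close to the average, at 0.970 in auxin and 0.993 in untreated. Each promoter shown is 250 bases before to 50 after the gene's start, from RefSeq on GRCm38.p6. It is written 5′ to 3′ on the gene's strand, with each CG in capitals. Nectin3 lies on the minus strand (chr16:46496918-46497217), Gm52257 on the plus strand (chr16:48057389-48057688) and Cip2a on the plus strand (chr16:48993938-48994237).
Nectin3: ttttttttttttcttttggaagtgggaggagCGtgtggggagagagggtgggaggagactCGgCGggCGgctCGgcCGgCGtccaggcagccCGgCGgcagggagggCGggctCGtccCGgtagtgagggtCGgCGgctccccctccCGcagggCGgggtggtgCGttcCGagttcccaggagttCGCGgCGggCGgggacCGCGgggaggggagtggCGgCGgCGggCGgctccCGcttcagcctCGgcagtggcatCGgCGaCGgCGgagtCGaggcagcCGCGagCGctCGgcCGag
Gm52257: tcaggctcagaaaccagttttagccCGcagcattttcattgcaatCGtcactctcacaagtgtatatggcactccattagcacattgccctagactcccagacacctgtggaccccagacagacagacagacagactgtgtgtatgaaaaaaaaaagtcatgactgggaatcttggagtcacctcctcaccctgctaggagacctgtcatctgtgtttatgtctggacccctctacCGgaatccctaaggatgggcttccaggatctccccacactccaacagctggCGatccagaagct
Cip2a: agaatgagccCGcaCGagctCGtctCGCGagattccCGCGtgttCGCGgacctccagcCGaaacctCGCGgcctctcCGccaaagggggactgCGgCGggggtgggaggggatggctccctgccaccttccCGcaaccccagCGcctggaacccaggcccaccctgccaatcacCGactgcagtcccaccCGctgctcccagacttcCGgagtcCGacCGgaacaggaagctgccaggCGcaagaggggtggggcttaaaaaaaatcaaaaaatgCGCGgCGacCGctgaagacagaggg
The Nectin3 promoter holds 40 CG dinucleotides, the Cip2a promoter 27 and the Gm52257 promoter 4, against a median of 7 in the 32851 promoters of the table, of which 94.6% hold at least 1. Promoters with at least as many make up 3.91% of the table for Nectin3, 15.5% for Cip2a and 68.6% for Gm52257. GATC, the MboI site, reads the same on both strands; the Nectin3 and Cip2a promoters hold 0 and the Gm52257 promoter 2, and 48.0% of all promoters hold at least 1. Dzip3, an RNA-binding ubiquitin ligase gene, starts head to head with Cip2a. Of the 2 promoters listed for Dzip3, the first (chr16:48994093-48994392, minus strand, 21 CG) overlaps the one shown for Cip2a.

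The deposited values are contacts after balancing, without a unit. Each could be divided by a factor for each of its bins to give whole read pairs, in all 433895 read pairs for the auxin matrix and 439849 for the untreated one. Of these, 52632 in auxin and 57965 in untreated linked bins 20 to 50 kb apart, a median of 20 read pairs per bin pair in auxin and 22 in untreated. Of the 2126 bin pairs, 86 were empty in auxin and 94 in untreated. In 18 bins fewer than 100 read pairs were found in at least 1 matrix; these thin bins carry large factors (up to 99.2 in auxin and 52.2 in untreated, against medians of 0.981 in auxin and 0.957 in untreated), so that a single read pair there counts for many. They touch 140 of the 2126 bin pairs, and these held 4.40% of the summed contact in auxin, from 95 read pairs, and 3.82% in untreated, from 107. Results that rest on them are given with and without them. Both matrices were scaled to the same sum, and intervals in brackets are 95% intervals that cover counting error only. They leave out differences between cultures and treat PCR copies of a molecule as separate counts.

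Contact at 20 to 50 kb was slightly lower in the auxin matrix than in the untreated one, at every one of the 4 distances. Mean scaled contact over the 2126 bin pairs was 22.5 in auxin and 24.3 in untreated, a log2 ratio of -0.11 (-0.14 to -0.08). At 20 kb it was 30.8 in auxin and 33.1 in untreated (log2 -0.10), and at 30 kb 23.2 in auxin and 24.6 in untreated (log2 -0.08). At 40 kb the means were 19.4 in auxin and 21.4 in untreated (log2 -0.14), and at 50 kb 16.8 in auxin and 18.0 in untreated (log2 -0.11). By the read-pair rate, which compares read pairs with those that the bin factors predict, the log2 ratio was -0.09 (-0.12 to -0.06) at 20 kb, -0.13 (-0.16 to -0.10) at 30 kb, -0.12 (-0.16 to -0.08) at 40 kb and -0.16 (-0.20 to -0.12) at 50 kb. It was thus lowest at 50 kb by the rate and at 40 kb by the means, and a change of the ratio with distance was not tested. These bin pairs took 12.2% of all summed contact in auxin and 13.2% in untreated. Weighting bin pairs by their expected count, which gives thin bins little weight, the log2 ratio was -0.12 (-0.14 to -0.10).

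The next distances on either side did not all share the difference. Neighbouring bins, 10 kb apart, had a mean of 50.1 in auxin and 50.0 in untreated (log2 0.00, -0.03 to 0.04). Contact within a bin had a mean of 40.04 in auxin and 41.5 in untreated (log2 -0.05, -0.12 to 0.02). Pairs 60 to 100 kb apart were again lower in auxin, with means of 12.7 in auxin and 13.5 in untreated (log2 -0.09, -0.13 to -0.05). Since both matrices have the same sum, lower values at these distances go with higher ones at others by construction.

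**Figure D1:**
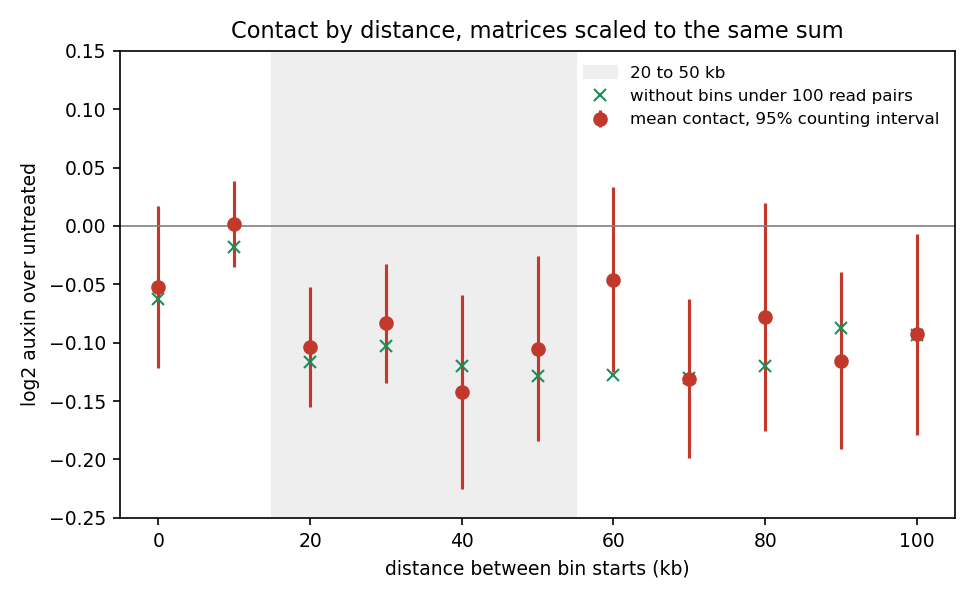
Log2 ratio of mean scaled contact, auxin over untreated, against the distance between bin starts in kb; bars are 95% counting intervals and crosses leave out bins under 100 read pairs. The 4 points from 20 to 50 kb (shaded) lie between -0.14 and -0.08, while the 10 kb point lies at 0.00.

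Local contact density was then followed along the interval in 53 windows of 100 kb, each with its bin pairs divided by the mean at the same distance in the same matrix, so that 1 is the average. The densest ground was the gene-free gap. Its bin pairs averaged 1.11 (1.07 to 1.16) in auxin and 1.09 (1.05 to 1.12) in untreated, and 13 of its 15 windows lay above 1 in auxin and 12 of 15 in untreated. The other stretches lay at or below the average: left of the gap up to Nectin3 contact was 0.952 in auxin and 0.976 in untreated, from Gm52257 to Cip2a 0.957 in auxin and 0.952 in untreated, and right of Cip2a 0.951 in auxin and 0.964 in untreated. All 5 of the densest windows, ranked by the mean of both matrices, lay in the gap.

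That order depends on how the bins were balanced. Row sums within the interval are not equal in the deposited matrices: they averaged 1598 in auxin and 1624 in untreated over the gap, against 1289 to 1420 in auxin and 1316 to 1406 in untreated over the other stretches. When each matrix was balanced again within the interval so that all row sums were equal, the gap lay at 0.958 in auxin and 0.911 in untreated, and the left stretch at 1.096 in auxin and 1.09 in untreated. That step raises bins near the ends by construction, since they have neighbours on 1 side only: the first window was at 1.69 in auxin and 2.15 in untreated, against 1.14 in auxin and 1.09 in untreated before it. Local density in the gap was therefore above average in the deposited balance and below it in the other.

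Dense windows, at least 1.2 times the average, numbered 4 in auxin (7.55% of windows) and 3 in untreated (5.66%), and 1 was dense in both. This window, chr16:47220001-47320000, had a mean scaled contact of 30.7 in auxin and 31.0 in untreated, from 633 read pairs in auxin and 651 in untreated. It was 1.37 (1.24 to 1.51) times the average in auxin and 1.24 (1.13 to 1.37) times in untreated, contains no thin bin and is gene-free. After balancing again it stood at 1.04 in auxin and 0.923 in untreated. The other windows of the 5 densest start at 47.52 Mb (1.23 in auxin and 1.17 in untreated), 47.62 Mb (1.14 in auxin and 1.22 in untreated), 47.72 Mb (1.15 in auxin and 1.18 in untreated) and 46.82 Mb (1.24 in auxin and 1.07 in untreated). Only the one at 47.62 Mb of these 5 contains a thin bin. The remaining dense calls were 46.62 Mb in auxin and 47.12 Mb in untreated, both of which contain one.

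Sparse windows, at most 1/1.2 of the average, numbered 4 in auxin (7.55%) and 5 in untreated (9.43%), and 2 were sparse in both. The window with the lowest mean of both matrices was chr16:48120001-48220000, next to the Dppa2 and Dppa4 region and free of protein-coding genes, at 0.723 (0.644 to 0.810) in auxin and 0.769 (0.683 to 0.866) in untreated. It holds a thin bin, with 20 read pairs in auxin and 26 in untreated, and without such bins it stood at 0.865 in auxin and 0.866 in untreated. The Nectin3 window, chr16:46420001-46520000, followed at 0.835 (0.775 to 0.8995) in auxin and 0.707 (0.664 to 0.754) in untreated. It was sparse in the untreated matrix and just above the limit in the auxin one. The window of Dzip3 and Cip2a, chr16:48920001-49020000, was sparse in both at 0.817 (0.664 to 1.00) in auxin and 0.779 (0.693 to 0.876) in untreated, and without thin bins at 0.845 in auxin and 0.877 in untreated. The window at 50.72 Mb was sparse only by the untreated value, at 0.877 in auxin and 0.763 in untreated, and 2 windows only by the auxin value. They start at 47.92 Mb (0.804 in auxin and 0.913 in untreated), with a thin bin, and at 45.92 Mb (0.823 in auxin and 0.908 in untreated). Without thin bins the window at 47.92 Mb stood at 0.970 in auxin and 0.993 in untreated, and by the read-pair rate at 0.960 in auxin and 1.06 in untreated. The window at 45.92 Mb stood without thin bins at 0.885 in auxin and 0.972 in untreated.

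Without thin bins 4 windows were dense in auxin and 1 in untreated, and 0 were sparse in auxin and 2 in untreated. The 2 are the Nectin3 window (0.856 in auxin and 0.733 in untreated) and the one at 50.72 Mb (0.858 in auxin and 0.742 in untreated). The range over all windows was 0.723 to 1.37 in auxin and 0.707 to 1.24 in untreated. The SD of log2 density over windows was 0.186 in auxin and 0.180 in untreated, against a median counting error of 0.0668 in auxin and 0.0625 in untreated. The windows of the auxin matrix followed those of the untreated one with r = 0.69 (rho = 0.74, n = 53), or r = 0.82 without thin bins. These points share the bins, and neighbouring windows share the bins at their edges, so the correlation is a description. Density also went with that of pairs 60 to 100 kb apart in the same window (r = 0.76 in auxin and 0.62 in untreated, n = 52) and with the row sum (r = 0.64 in auxin and 0.51 in untreated). It went the other way with read pairs per bin (r = -0.28 in auxin and -0.44 in untreated).

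**Figure D2:**
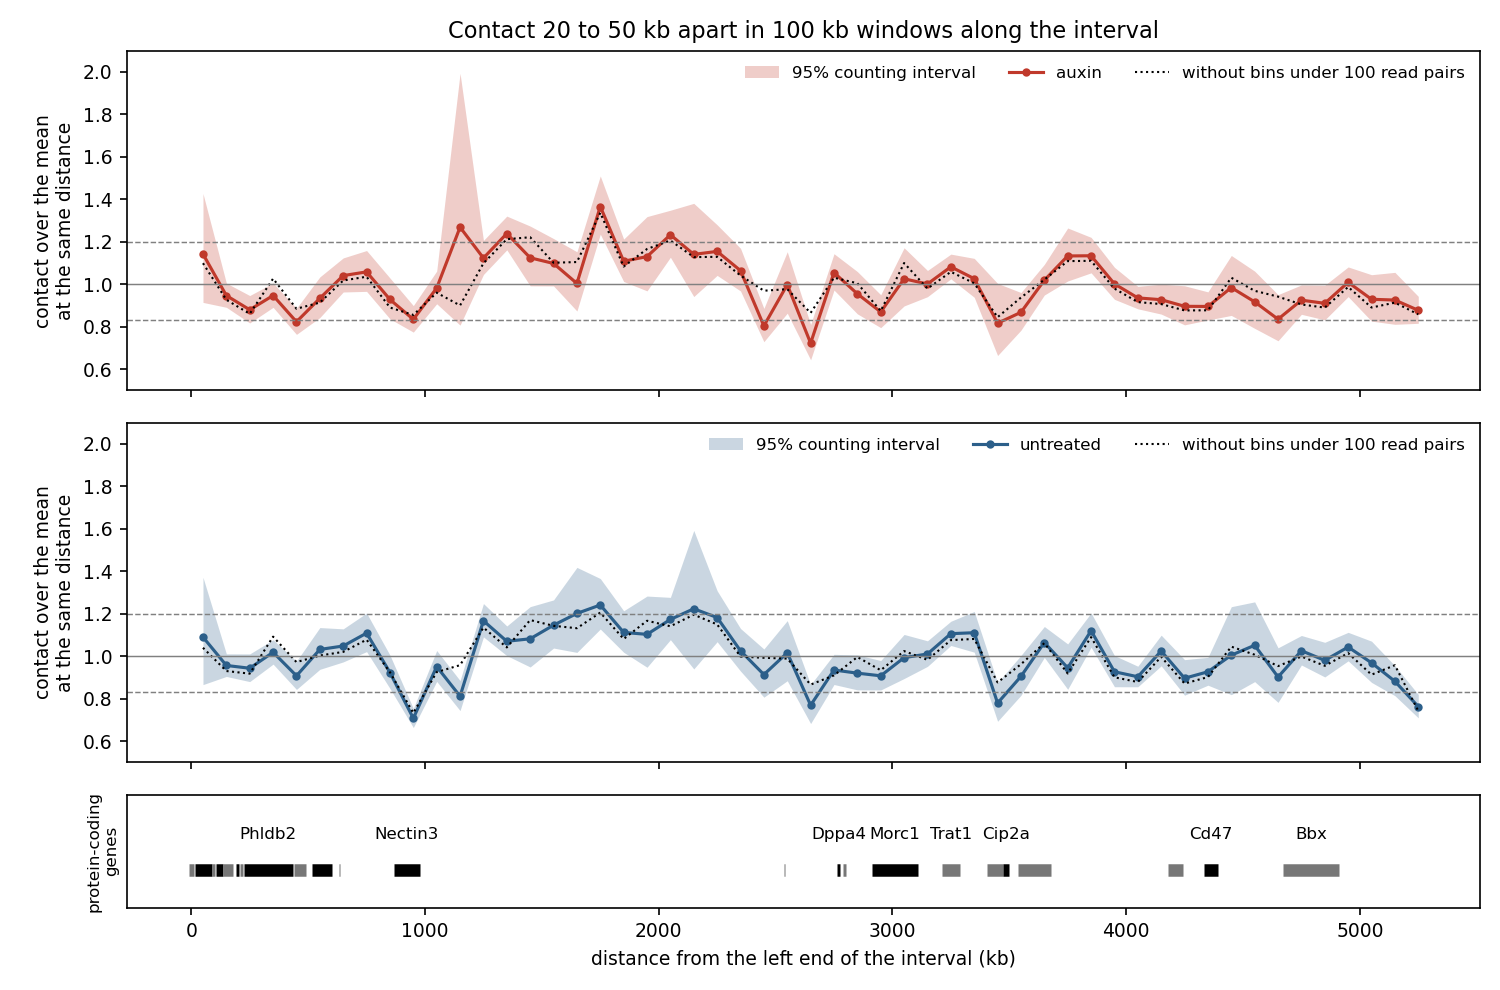
Contact 20 to 50 kb apart over the mean at the same distance, per 100 kb window, against the distance in kb from the left end of the interval, with auxin above and untreated below; bands are 95% counting intervals, dotted lines leave out bins under 100 read pairs, dashed lines mark 1.2-fold, and bars at the bottom are protein-coding genes. In both matrices most windows of the gap right of Nectin3 form the raised stretch. The Nectin3 window is a low point on its left, at 0.835 in auxin and 0.707 in untreated.

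Next, windows were compared between the matrices. Most were a little lower in auxin: the log2 ratio was below 0 in 47 of 53 windows, with a median of -0.13 and a range of -0.30 to 0.51. It was below 0 at all 4 distances in 14 windows and above 0 at all 4 in 2. Past 1.2-fold, 4 windows were lower in auxin (7.55%) and 1 was higher (1.89%). By the read-pair rate, whose exact interval covers counting error, 27 windows (50.9%) had an interval below 0 and 1 (1.89%) had one above 0. Measured against the median window instead, 0 windows were lower past 1.2-fold (0%) and 2 were higher (3.77%).

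The largest ratio rests on a single thin bin. In the window chr16:46620001-46720000, inside the gap, mean scaled contact was 28.2 in auxin and 19.8 in untreated, a log2 ratio of 0.51. The bin starting at 46640001 held 19 read pairs in all in auxin and 18 in untreated; 8 of the window's bin pairs touch it, and these gave 40.99% of the window's value in auxin from 5 read pairs and 3.99% in untreated from 1 read pair. Without thin bins the ratio was -0.19, and the read-pair rate gave -0.18 (-0.30 to -0.06). Its dense call in auxin and its sparse call in untreated both ended with that bin left out, at 0.9004 in auxin and 0.958 in untreated.

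The Nectin3 window was 1 of the 2 windows with higher contact in auxin at all 4 distances; the other was the gene-free one at 46.82 Mb. Mean scaled contact was 24.7 in auxin and 24.6 in untreated at 20 kb, and 21.2 in auxin and 17.2 in untreated at 30 kb. At 40 kb it was 16.4 in auxin and 15.2 in untreated, and at 50 kb 13.0 in auxin and 12.2 in untreated. The 20 kb values were nearly equal and most of the difference lay at 30 kb. Over all 4 distances the window had 18.8 in auxin and 17.3 in untreated (log2 0.12), from 1634 read pairs in auxin and 1774 in untreated. The read-pair rate gave 0.10 (0.01 to 0.20), the 1 interval above 0, and the value without thin bins was also 0.10. At 60 to 100 kb the same window had a log2 ratio of 0.19, but at 110 to 250 kb only 0.02. After balancing again the 20 to 50 kb ratio was 0.18. The CG-rich Nectin3 promoter printed above lies in this window.

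The other 3 of the 5 windows with the highest ratios had rate intervals on both sides of 0. The window at 49.22 Mb had the ratio next to the largest, with 26.01 in auxin and 23.1 in untreated (log2 0.17, rate 0.06, -0.09 to 0.21). With the window at 46.62 Mb it makes up the 2 that were higher past 1.2-fold relative to the median window. Smaller ratios than at Nectin3 were found in the windows that start at 46.82 Mb (27.5 in auxin and 25.7 in untreated, log2 0.09, rate 0.03, -0.08 to 0.15) and 50.72 Mb (19.8 in auxin and 18.6 in untreated, log2 0.09, rate 0.04, -0.09 to 0.16). None of these 3 windows holds a protein-coding gene or touches a thin bin.

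Of the 4 windows lower past 1.2-fold, 3 came back inside that fold without thin bins. The window at 47.92 Mb had 18.2 in auxin and 22.4 in untreated (log2 -0.30, or -0.17 without thin bins), the one at 47.12 Mb 23.3 in auxin and 28.5 in untreated (log2 -0.29, or -0.12), and the one at 50.02 Mb 20.9 in auxin and 25.1 in untreated (log2 -0.26, or -0.14). All 3 hold a thin bin and no protein-coding gene. The other, chr16:45920001-46020000, holds the part of Phldb2 at its higher coordinates and all of Plcxd2, a phospholipase-like gene. Phldb2 encodes a cortical anchor of microtubules. The values that follow are those of this window. It had 18.3 in auxin and 22.1 in untreated (log2 -0.27, or -0.28 without thin bins), with a read-pair rate of -0.19 (-0.31 to -0.07). After balancing again its log2 ratio was only -0.03. Next came the window at 50.22 Mb inside Bbx, an HMG-box gene, which had 20.9 in auxin and 24.7 in untreated (log2 -0.24), a rate of -0.24 (-0.37 to -0.10) and no thin bin. By the rate the lowest window was the one at 46.02 Mb, which holds part of Cd96, a receptor of T and NK cells, at -0.31 (-0.45 to -0.16). After balancing again the log2 ratio of the Cd96 window was only -0.04. The window at 50.22 Mb then had -0.22, and those at 47.92, 47.12 and 50.02 Mb had -0.49, -0.18 and -0.32.

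Windows that differed at 20 to 50 kb were not clearly those that differed farther out. At 60 to 100 kb, 9 of 52 windows were lower in auxin past 1.2-fold (17.3%) and 1 was higher (1.92%), and at 110 to 250 kb 3 of 51 were lower (5.88%) and 1 was higher (1.96%). Across windows the log2 ratio at 20 to 50 kb had r = 0.23 with that at 60 to 100 kb (n = 52) and r = 0.08 with that at 110 to 250 kb (n = 51), again as descriptions.

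**Figure D3:**
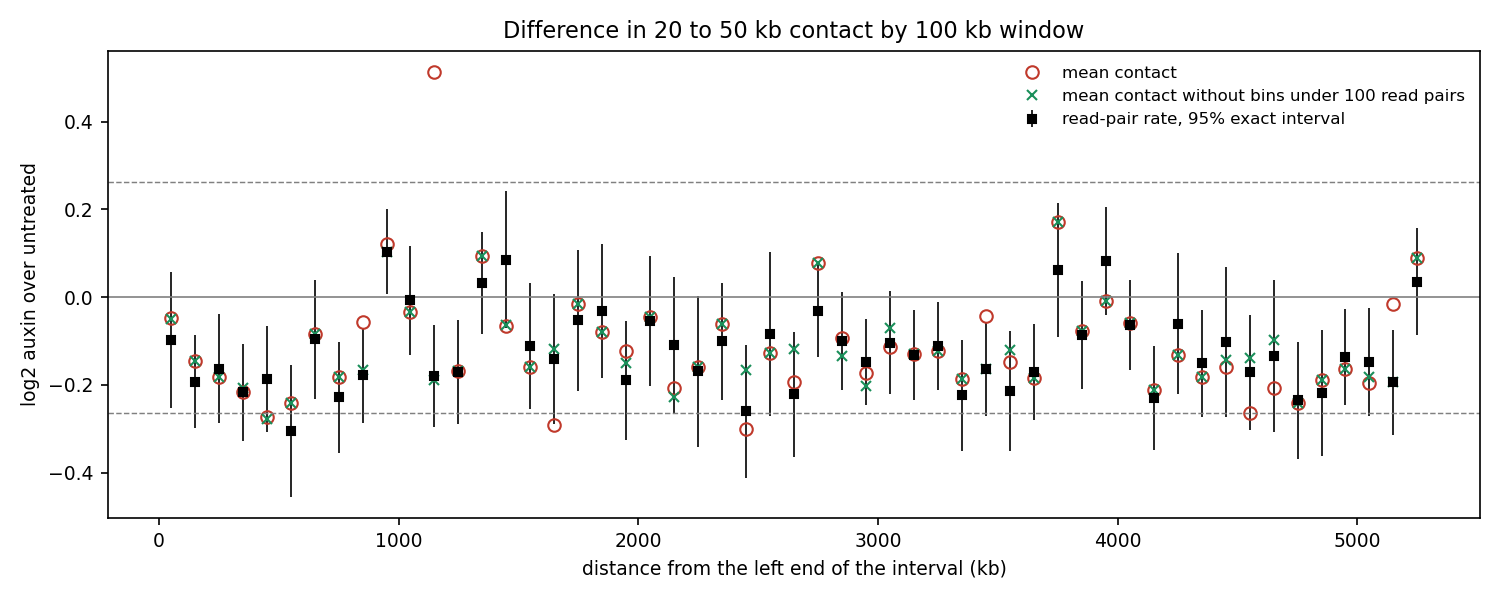
Log2 ratio of 20 to 50 kb contact, auxin over untreated, per 100 kb window against the distance in kb from the left end of the interval; squares with bars are read-pair rates with exact 95% intervals, open circles means over bin pairs, crosses the same means without bins under 100 read pairs, and dashed lines 1.2-fold. Most windows lie just below 0, and the single circle at 0.51 has its square at -0.18 and its cross at -0.19.

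Gene cover was set against density by calling a bin gene-covered when at least 50% of it lies in protein-coding gene bodies and gene-free when none does. This gave 156 covered and 358 free bins, 155 of the free ones inside the gap and 203 elsewhere. Pairs with both bins covered averaged 0.954 (0.922 to 0.986) in auxin and 0.962 (0.935 to 0.989) in untreated, and pairs with both bins free 1.04 (1.01 to 1.07) in auxin and 1.02 (1.00 to 1.05) in untreated. Covered over free contact was thus 0.917 (0.879 to 0.956) in auxin and 0.939 (0.906 to 0.972) in untreated. The log2 ratio between these 2 values was -0.03 (-0.11 to 0.05), so no difference between the matrices was detectable at this depth. Pairs of 1 covered and 1 free bin had the lowest contact, 0.880 (0.847 to 0.915) in auxin and 0.929 (0.896 to 0.963) in untreated.

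The excess of gene-free pairs lay in the gap. Free pairs there averaged 1.12 (1.07 to 1.17) in auxin and 1.09 (1.06 to 1.13) in untreated, while free pairs elsewhere averaged 0.966 (0.943 to 0.989) in auxin and 0.963 (0.938 to 0.989) in untreated, which is where covered pairs lay. With the gap left out, an alternative chosen after seeing the data, covered over free contact was 0.987 in auxin and 0.999 in untreated. Right of the midpoint between Cip2a and Myh15 it was 0.966 in auxin and 1.04 in untreated. Over the whole interval, balancing again turned the direction round in both matrices, to 1.13 in auxin and 1.19 in untreated. This did not hold right of Cip2a, where covered and free pairs were then alike, both at 1.02 in auxin and 1.06 in untreated. Left of Myh15 covered pairs stood at 1.15 in auxin and 1.18 in untreated, and free pairs outside the gap at 0.929 in auxin and 0.876 in untreated.

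**Figure D4:**
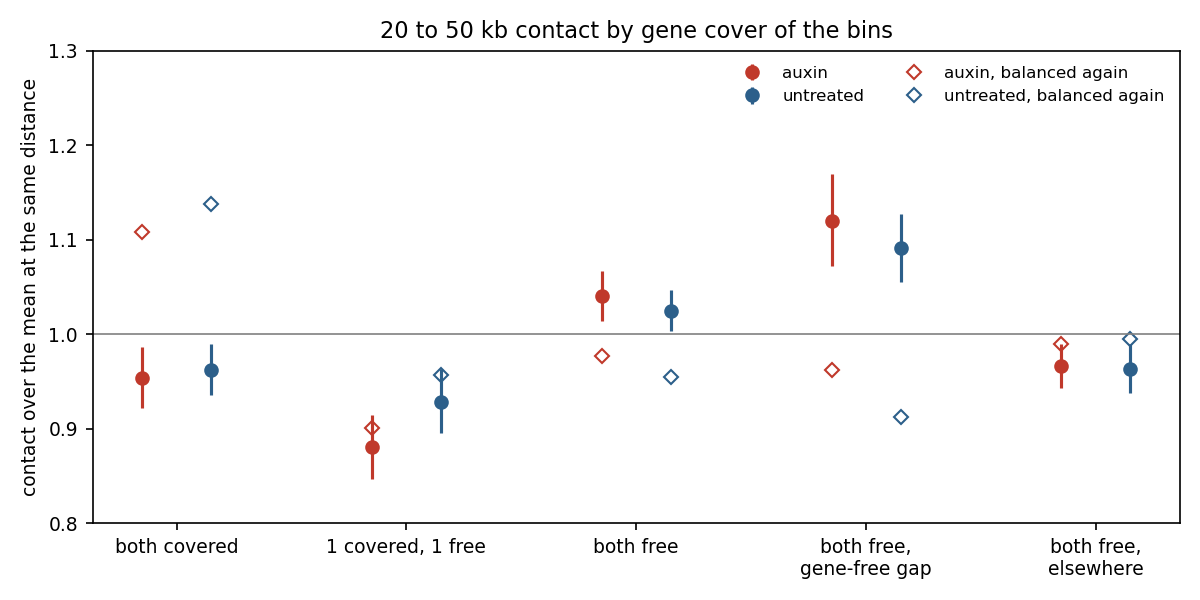
Contact 20 to 50 kb apart over the mean at the same distance, by gene cover of the bins, with auxin left of untreated in each class; filled points carry 95% counting intervals and open diamonds are the values after balancing again within the interval. Gene-free pairs of the gap lie highest among the filled points, at 1.12 in auxin and 1.09 in untreated, and below 1 among the diamonds.

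Contact around single genes was taken from bin pairs with their midpoint within 25 kb of the gene body. Of the 28 genes, 25 had a log2 ratio below 0, with a median of -0.13. Past 1.2-fold, 2 were lower in auxin (7.14%) and 0 higher (0%), and by the read-pair rate 16 (57.1%) had an interval below 0 and 0 (0%) had one above 0. Both shares are close to those of the windows. Contact was above the average around 13 of the 28 genes in auxin and 13 in untreated. Balancing again moved 13 genes to the other side of the average in auxin (8 upward and 5 downward) and 12 in untreated (9 upward and 3 downward), so levels against the average hold for the deposited balance. The 2 genes past 1.2-fold are Plcxd2, with 19.1 in auxin and 23.4 in untreated (log2 -0.29, rate -0.24, -0.35 to -0.12), and Bbx, with 19.7 in auxin and 23.9 in untreated (log2 -0.28, rate -0.23, -0.31 to -0.15). After balancing again Plcxd2 stood at 1.01 times the average in auxin and 0.866 in untreated, so auxin was then the higher. Bbx kept its direction, at 0.973 in auxin and 1.07 in untreated.

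Contact within 25 kb of Dppa4 and Dppa2 was above the average in both matrices, and their own pair was among the strongest contacts. The 100 kb window that holds both genes was below the average in untreated. Around Dppa4 (48283735 to 48294292) contact was 1.13 (1.05 to 1.22) times the average in auxin and 1.11 (1.03 to 1.199) times in untreated, and around Dppa2 (48310274 to 48319513) 1.07 (0.982 to 1.17) in auxin and 1.14 (1.04 to 1.25) in untreated. Mean scaled contact was 25.9 in auxin and 27.2 in untreated around Dppa4 (log2 -0.07, rate -0.10, -0.23 to 0.04). Around Dppa2 it was 24.4 in auxin and 27.8 in untreated (log2 -0.19, rate -0.16, -0.31 to -0.02). No thin bin touches either set. The window that holds both genes, at 48.22 Mb, stood at 1.05 (0.973 to 1.14) in auxin and 0.935 (0.867 to 1.01) in untreated. Its log2 ratio was 0.08, with a read-pair rate of -0.03 (-0.14 to 0.08). After balancing again Dppa4 was at 1.02 in auxin and 1.03 in untreated, and Dppa2 at 0.958 in auxin and 1.04 in untreated. Among the 1005 bin pairs with at least 20 read pairs in both matrices and no thin bin, the bins starting at 48290001 and 48310001, which hold parts of the 2 genes, ranked 3 by the lower of their values. They had 91 read pairs in auxin, 1.76 times the average, and 97 in untreated, 1.89 times. The pair starting at 48280001 and 48310001 ranked 5 with 65 read pairs in auxin (1.67 times) and 70 in untreated (1.72 times). The other 3 of the first 5 lay in the gap at 47.10 to 47.34 Mb, with 24 to 43 read pairs, the first at 2.93 times the average in auxin and 1.93 times in untreated. Morc1, a gene needed to silence transposons in the male germ line, is the remaining gene of the germline and early embryo list, at 0.963 in auxin and 0.961 in untreated. All 3 genes of the list had log2 ratios below 0 and 2 a rate interval below 0, against 25 and 16 (57.1%) of all 28 genes, so these counts are close to the background. Dppa2 and Dppa4 share bin pairs and are not separate observations.

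The resistin-like genes Retnla, Retnlb and Retnlg, whose products are cysteine-rich secreted proteins, had contact above the average in both matrices. Retnla stood at 1.14 in auxin and 1.17 in untreated, Retnlb at 1.12 in auxin and 1.15 in untreated and Retnlg at 1.06 in auxin and 1.14 in untreated. They lie within 60 kb of each other and share bin pairs, so they are not separate observations. All 3 had log2 ratios below 0, with a median of -0.15 against -0.13 over all 28 genes. After balancing again Retnlg was at 0.992 in auxin and 1.19 in untreated.

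Of the 5 genes of the lymphocyte and immune surface list, 4 were placed. Trat1, an adaptor of the T cell receptor, was at 1.08 (1.03 to 1.14) in auxin and 1.11 (1.05 to 1.16) in untreated, and Gcsam, a signalling protein of germinal centre B cells, at 1.03 in auxin and 1.01 in untreated. Cd96 was at 0.981 in auxin and 1.01 in untreated, and Cd47, a surface signal against phagocytosis, at 0.949 in auxin and 0.919 in untreated. All 4 had log2 ratios below 0 and 3 a rate interval below 0, again close to the 25 and 16 of all 28 genes. The list spans both sides of the average.

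The 4 genes of the cell adhesion and cytoskeleton list had a median contact of 0.902 in auxin and 0.931 in untreated, against 0.983 in auxin and 0.982 in untreated over all 28 genes. Nectin3 was at 0.889 (0.822 to 0.960) in auxin and 0.787 (0.736 to 0.841) in untreated, and Phldb2 at 0.881 (0.844 to 0.920) in auxin and 0.951 (0.913 to 0.990) in untreated. Their point values thus went in opposite directions between the matrices, though the rate interval of Nectin3, which follows, spans both signs. Over its body and flanks Nectin3 had 20.1 in auxin and 18.9 in untreated (log2 0.09), with a rate of 0.03 (-0.05 to 0.11), and Phldb2 19.9 in auxin and 23.1 in untreated (log2 -0.22), with a rate of -0.20 (-0.28 to -0.13). Tagln3, an actin-binding protein gene, was at 0.915 in auxin and 0.912 in untreated, and Myh15, a myosin heavy chain gene, at 0.985 in auxin and 1.01 in untreated. Of the 4, all lay below 1 in auxin and 3 in untreated, against 15 of all 28 genes in each matrix. Without thin bins Myh15 stood above 1, at 1.03 in auxin and 1.04 in untreated. Phldb2 then stood at 0.930 in auxin and 0.997 in untreated, and Nectin3 and Tagln3 stayed below 1 in both. After balancing again Tagln3 stood above the average, at 1.23 in auxin and 1.12 in untreated, as did Phldb2, at 1.07 in auxin and 1.09 in untreated.

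Of the 13 other listed genes 11 were placed, with a median of 0.867 in auxin and 0.942 in untreated. The lowest contact of all 28 genes was around Cip2a, at 0.784 (0.606 to 1.01) in auxin and 0.741 (0.660 to 0.831) in untreated. Of the 30 bin pairs of Cip2a, 4 touch a thin bin. Without thin bins it was at 0.773 in auxin and 0.791 in untreated, still the lowest. Dzip3 was at 0.823 in auxin and 0.817 in untreated, and 8 of its 48 bin pairs touch a thin bin; without thin bins it was at 0.843 in auxin and 0.897 in untreated. Ift57, an intraflagellar transport gene, had no thin bin and stood at 0.857 (0.779 to 0.942) in auxin and 0.858 (0.789 to 0.933) in untreated, and Abhd10, a mitochondrial hydrolase gene, at 0.854 in auxin and 0.844 in untreated. These were low by nearly the same amount in both matrices. Bbx was at 0.867 in auxin and 0.984 in untreated, and Plcxd2 at 0.844 in auxin and 0.942 in untreated. Tmprss7, a membrane serine protease gene, was at 0.922 in auxin and 0.952 in untreated, and Slc9c1, a sperm sodium and proton exchanger gene, at 1.12 in auxin and 1.07 in untreated. Of the predicted genes, Gm4737 was at 1.06 in auxin and 1.02 in untreated, Gm4802 at 1.07 in auxin and 1.01 in untreated, and Gm52257 at 1.05 in auxin and 0.886 in untreated. Gm52257 rests on 199 read pairs in auxin and 174 in untreated. After balancing again Cip2a stood at 0.996 in auxin and 0.947 in untreated and Dzip3 at 1.06 in auxin and 1.02 in untreated, while Nectin3 stood at 0.983 in auxin and 0.802 in untreated.

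**Figure D5:**
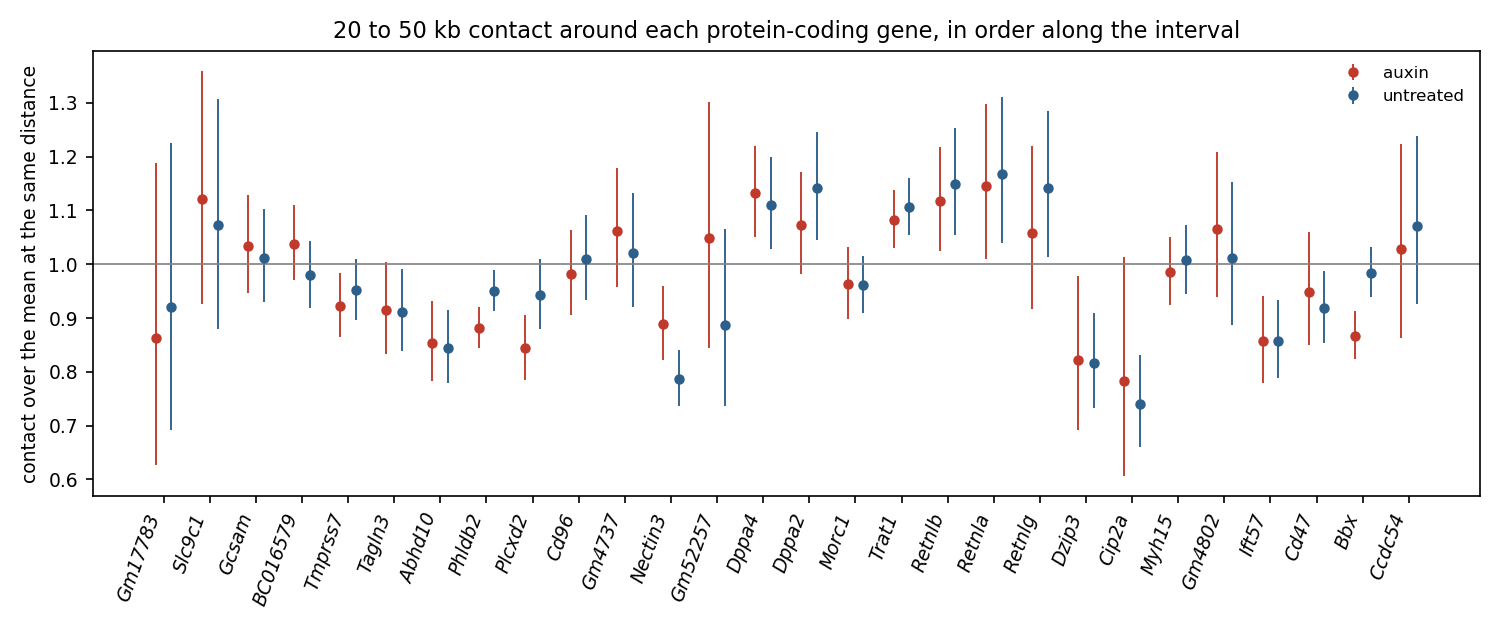
Contact 20 to 50 kb apart over the mean at the same distance around each of the 28 protein-coding genes, in order along the interval, with auxin left of untreated and 95% counting intervals. Cip2a, Dzip3, Abhd10 and Ift57 lie low in both matrices, the resistin-like genes, Dppa4 and Trat1 lie above 1 in both, and for Bbx the intervals of auxin, at 0.867, and untreated, at 0.984, do not overlap.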

How the data were processed

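The authors pooled replicates, used bins of 10 kb and applied iterative correction to each matrix, as the names of the deposited matrices state; the deposited values are balanced contact scores without a unit. The genome build mm10 and the trimmer Trim Galore come from the submitters' processing notes; an aligner, read filters and a balancing tool are not named there. The factor of each bin was first taken from pairs more than 2000 kb apart and then refined on nearer ones; 100% of nonzero values then came within 0.02 of a whole number of read pairs (433895 in auxin, with a median of 1532 per bin, and 439849 in untreated, with 1542). The procedure was also run on simulated matrices with known bin factors, and the outcome is not reported here.

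Both matrices were scaled to the same sum over the upper triangle. A bin pair belonged to the 100 kb window holding its midpoint; windows needed 30 of 40 bin pairs, which left out 1. Density is the mean of values divided by the mean at that distance. The read-pair rate divides read pairs by those expected from the bin factors. Intervals of means are Poisson intervals on the log scale and those of rate ratios exact (Clopper-Pearson). No test was possible with 1 matrix per condition; called means past 1.2-fold. Windows were named by the 5 highest and 5 lowest densities and log2 ratios, and genes from lists; strong single bin pairs and the window lowest by the rate were chosen after their values were seen. Members, lists and settings were chosen with earlier results of these data known. Gene positions came from RefSeq on GRCm38.p6, whose coordinates are those of mm10. Of 28 listed genes, 25 were placed, and 22 of the 28 protein-coding genes placed had a promoter in the sequence table. Versions were Python 3.11.15, NumPy 2.4.6, pandas 2.3.3, SciPy 1.17.1 and matplotlib 3.10.9.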

Additional observations from a re-analysis of the deposited data

How the results depend on the processing

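Of 153 alternative values 85 kept their place and 68 moved, most of them counts of few windows; the causes were not tested. The log2 ratio of the band was below 0 in all 9 alternatives, from -0.14 (median over bin pairs) to -0.06 (values as deposited, not scaled). The log2 ratio between the covered over free values stayed between -0.11 and 0.00. No paired analysis was possible because each condition has 1 pooled matrix.

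Without bins under 100 read pairs, 1.92% of windows were dense in untreated, 0% were sparse in auxin and 3.85% in untreated, 1.92% were lower and 0% higher in auxin, and 1.92% were higher relative to the median. With the read-pair rate these were 0% sparse in auxin and 3.77% in untreated, 1.89% lower, 0% higher and 0% higher relative to the median. Leaving out the single thin bin of the window highest in auxin, chosen after seeing the data, gave 3.77% dense in untreated and 0% higher. Medians over bin pairs gave 1.89% dense and 5.66% sparse in untreated, 20.8% lower, 0% higher, 5.66% lower and 7.55% higher relative to the median, a band log2 ratio of -0.144 and a covered over free value of 0.984 in untreated.

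Balancing again within the interval gave 3.77% dense in auxin, 22.6% lower, 3.77% lower and 5.66% higher relative to the median, and covered over free values of 1.13 in auxin and 1.19 in untreated. Values not scaled gave 0% lower and a band log2 ratio of -0.0577. Pairs 20 and 30 kb apart alone gave 3.77% lower relative to the median. Pairs 40 and 50 kb apart alone gave 11.3% dense in auxin, 18.9% lower, and 7.55% lower and 7.55% higher relative to the median. Only pairs with both bins in the window gave 11.3% sparse in auxin, 11.3% lower, and 3.77% lower and 9.43% higher relative to the median. Windows of 50 kb gave 12.4% dense in auxin, 14.3% lower, and 2.86% lower and 7.62% higher relative to the median. Windows of 200 kb gave 0% dense and 0% sparse in auxin, 3.85% sparse in untreated, 0% lower and 0% higher. Windows shifted by 50 kb gave 11.3% sparse in auxin and 1.89% lower relative to the median.

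A fold of 1.1 gave 24.5% dense in auxin and 24.5% in untreated, 22.6% sparse in auxin and 22.6% in untreated, 49.1% lower, 3.77% higher, and 5.66% lower and 11.3% higher relative to the median. A fold of 1.4 gave 0% dense in auxin and 0% in untreated, 0% sparse in auxin and 1.89% in untreated, 0% lower and 1.89% higher relative to the median. Covered over free contact was 0.895 in untreated left of the midpoint between Cip2a and Myh15, and 0.966 in auxin and 1.04 in untreated right of it. Without the gap, chosen after seeing the data, it was 0.987 in auxin and 0.999 in untreated. With genes of all types counted it was 0.887 in auxin and 0.921 in untreated.

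Window values rest on 481 to 1634 read pairs in auxin and 469 to 1774 in untreated; the rate interval of a window has a median width of 0.125 on either side in log2, so differences below about that size were not detectable.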

Other observations

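The steepness of the contact decay within a window was compared as 20 kb over 50 kb contact, a value not used above. Its median was 1.87 in auxin and 1.88 in untreated, with ranges of 1.13 to 2.51 in auxin and 1.33 to 2.77 in untreated. The densest window, at 47.22 Mb, had 1.83 in auxin and 2.77 in untreated, the highest untreated value: at 20 kb its contact was 40.9 in auxin and 46.7 in untreated, and at 50 kb 22.3 in auxin and 16.9 in untreated. Windows with no protein-coding gene numbered 25 and had a median density of 1.06 in auxin and 1.05 in untreated, against 0.932 in auxin and 0.987 in untreated for the 28 windows with one. These 25 include the 15 windows of the gap, and gene-free bin pairs outside the gap averaged 0.966 in auxin and 0.963 in untreated. As given above, balancing again turned the direction of covered over free contact round over the whole interval, though not right of Cip2a. Density at 20 kb and at 50 kb in the same window had r = 0.43 in auxin and 0.53 in untreated (n = 53 windows sharing bins), as a description.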
